A study of Mus musculus with 6 samples.

Results

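The genes described here carry glucose into the cell, break it down to pyruvate and lactate, move lactate out, and decide whether pyruvate enters the mitochondrion. They were chosen by name as a list of 34 genes, and all 34 were found among the 54134 genes of the count table. The rule uses what the genes are known to do and no measured value. The libraries were made from tailbuds of C57BL/6 mouse embryos at embryonic day E10.5, with polyA RNA of 1 embryo per library. The 4 wildtype embryos were transgene-negative embryos from the same kind of pronuclear injection that gave the 2 Cdx2P:Nr6a1 embryos. These carry Nr6a1, which encodes a nuclear receptor of axial progenitors, under the control of a Cdx2 promoter that is active in the posterior embryo. Each Cdx2P:Nr6a1 embryo was a transgenic founder of its own, so the insertion and its dose can differ between the 2 embryos. The comparison asks how sustained Nr6a1 alters transcription in the tailbud, and here it is followed through the genes of glucose and lactate metabolism.

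Glycolysis splits glucose into pyruvate in the cytosol and yields ATP without oxygen. Cells that grow and divide fast often reduce most of that pyruvate to lactate, which regenerates the cofactor NAD+ and is exported with a proton. Pyruvate that is not reduced enters the mitochondrion and is oxidised by the pyruvate dehydrogenase complex, which is switched off by its own kinases. In the vertebrate tailbud glycolytic activity is graded along the axis, highest near the posterior tip, and is known to be tied to FGF and Wnt signalling in the elongating axis. Several genes of the pathway are also induced through the hypoxia-inducible factor, of which Hif1a encodes the oxygen-regulated subunit.

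Library totals lay between 44073460 and 67183802 counts. Nr6a1 was at 3.91, 5.18, 5.53 and 6.89 CPM (counts scaled to a library total of 1000000) in wildtype replicates 1 to 4 and at 23.4 and 33.8 CPM in Cdx2P:Nr6a1 replicates 1 and 2, a log2 fold change of 2.41 (SE 0.20). It rose in both Cdx2P:Nr6a1 libraries (adjusted p = 0.00132, edgeR's quasi-likelihood test with Benjamini-Hochberg adjustment, the test used for every gene below). The defining markers of the tailbud were present in each library, with the mesoderm and notochord factor T between 886 and 1189 CPM. Other cells were present in unequal amounts, since 8 erythroid genes summed to 8299 to 20022 CPM. The 4 Y-linked genes were counted in wildtype replicate 3 and Cdx2P:Nr6a1 replicate 2 at 180 to 209 CPM and were under 0.1 CPM in the rest. Of 9 lists of markers, the progenitor gene Cdx2, the neural genes Sox1 and Sox3 and the muscle gene Des were called, each higher in Cdx2P:Nr6a1.

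The genes of the list had very unequal RNA levels in the wildtype tailbud, and no other tissue or stage was compared. To compare levels between genes, CPM was divided by the exon length in the count table, in kilobases, to give RPKM. Ldha, the lactate dehydrogenase subunit that favours lactate, stood highest of the 34 genes at 767 ± 58.7 RPKM (SD, n = 4 wildtype libraries), followed by the pyruvate kinase gene Pkm at 471 ± 23.7 RPKM. These were followed by Tpi1 (259 ± 25.5 RPKM), Slc2a3 (229 ± 9.22 RPKM), Aldoa (225 ± 22.0 RPKM), Gapdh (207 ± 6.76 RPKM), Eno1 (188 ± 10.2 RPKM) and Pgk1 (156 ± 11.8 RPKM). Ldha and Pkm were separated from each other and from the next genes in every wildtype library. Tpi1 also lay above Slc2a3 and Aldoa in each of them, although the ranges overlapped across libraries. The order of Slc2a3 and Aldoa changed between libraries and is not resolved. At the other end, the neuronal enolase Eno2 was at 0.0908, 0.183, 0.148 and 0.194 RPKM in wildtype replicates 1 to 4 and at 0.241 and 0.193 RPKM in the Cdx2P:Nr6a1 libraries. Eno2 did not pass the filter on low counts, so 33 of the 34 genes were tested. The pyruvate carrier subunits Mpc1 (1.96 ± 0.254 RPKM) and Mpc2 (2.17 ± 0.103 RPKM) and the regulator Pfkfb2 (1.02 ± 0.142 RPKM) also lay near the low end on this scale. The exon length in the count table can exceed that of the longest protein-coding transcript. It was 7344 against 1025 bases for Mpc2, 2082 against 961 for Mpc1 and 4133 against 1420 for Gapdh. The order of the genes therefore depends on the length used.

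**Figure D1:**
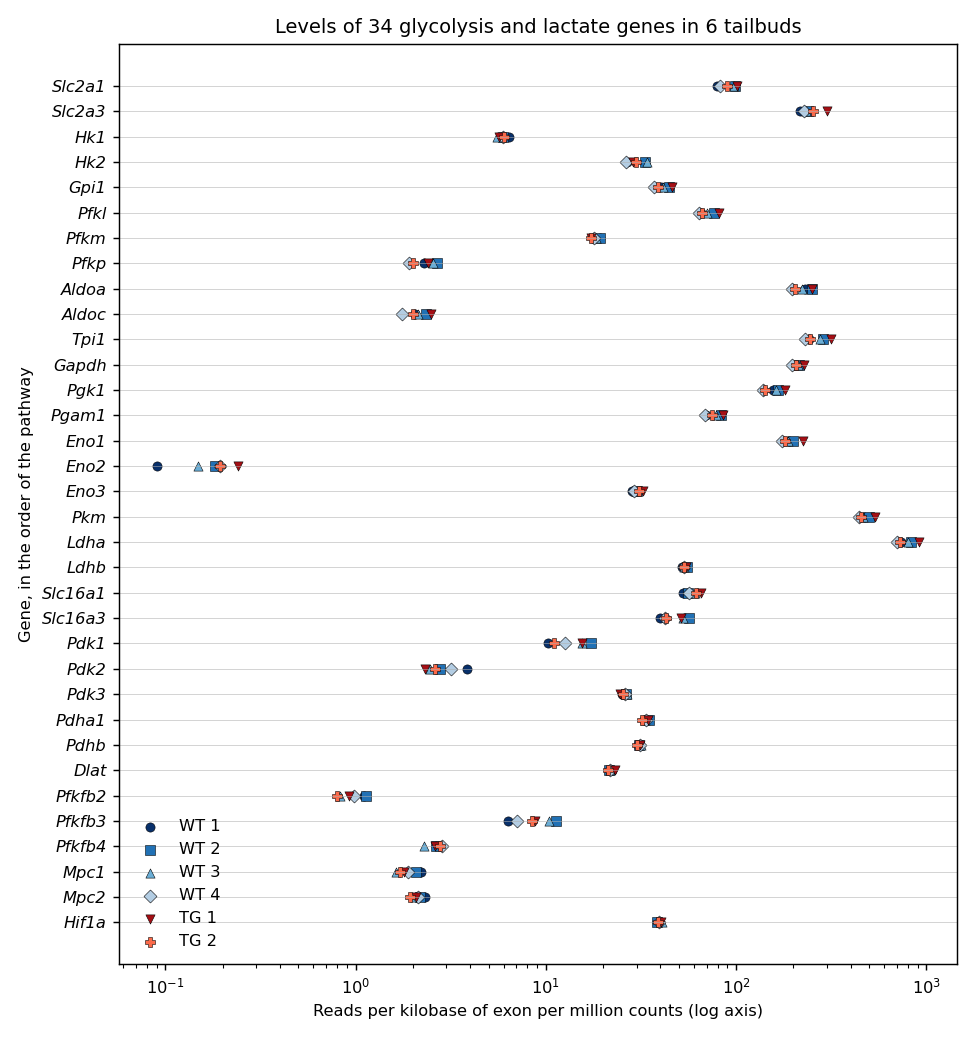
RPKM, the CPM per kilobase of exon (x axis, log scale), of the 34 genes in the order of the pathway (y axis), with 1 point per library for wildtype (WT, n = 4) and Cdx2P:Nr6a1 (TG, n = 2). Ldha and Pkm lie furthest to the right, Eno2 furthest to the left, and the 6 points of a gene lie close together compared with the distances between genes.

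The list as a whole took 1.25% to 1.55% of the counts of a library. Its 16 genes of glycolytic enzymes summed to 7288, 7909, 7445 and 6800 CPM in wildtype replicates 1 to 4 and to 8397 and 7050 CPM in Cdx2P:Nr6a1 replicates 1 and 2. The highest sum was that of Cdx2P:Nr6a1 replicate 1, and the other Cdx2P:Nr6a1 library lay inside the wildtype range, so the groups overlapped. The means were 7360 ± 457 CPM (SD, n = 4) and 7724 ± 952 CPM (SD, n = 2), a log2 ratio of 0.069 against a wildtype SD of 0.090 on the same scale. With 2 libraries against 4 there are 15 arrangements and a two-sided exact permutation test cannot give a p under 0.0667.

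No member was called under sustained Nr6a1 with the chosen test and filter, and 1, Slc2a3, was called in 2 of 16 alternatives. Of the 33 genes tested, 0 were called at an adjusted p under 0.05 by edgeR's quasi-likelihood test, where 203 of all 12733 genes tested (1.59%) were called. DESeq2 called 1 member, Slc2a3, where it called 477 of all 12733 genes. Without a filter on low counts edgeR also called Slc2a3 alone of the members, where it called 876 of all 32579 genes. The likelihood ratio test of edgeR and limma voom called 0 members, where they called 401 and 237 of all 12733 genes. With the expression of the Y-linked genes as a covariate, which bears on the X-linked members Pgk1, Pdk3 and Pdha1, 0 members were called. At an unadjusted p under 0.05, 2 members were higher in Cdx2P:Nr6a1, Slc2a3 and Slc16a1 (6.06% of the members, against 5.54% of all genes tested), and 0 were lower (against 4.99%). Both Cdx2P:Nr6a1 libraries lay beyond every wildtype library for 4 members, higher for Slc2a3, Slc16a1 and Eno3 and lower for Pfkm, or 12.1% of the members, against 18.6% of all genes tested. The median log2 fold change of the 33 genes was 0.014, and that of all genes tested was -0.00071. The fold change was above 0 for 19 of the 33 (57.6%) and for 49.7% of all genes tested. The precision was enough to bound most changes, since for 28 of the 33 genes the 95% interval of the log2 fold change lay within 0.5 of 0 on either side. In whole tailbuds, a change in the number of cells that express a gene and a change in its RNA per cell cannot be told apart.

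**Figure D2:**
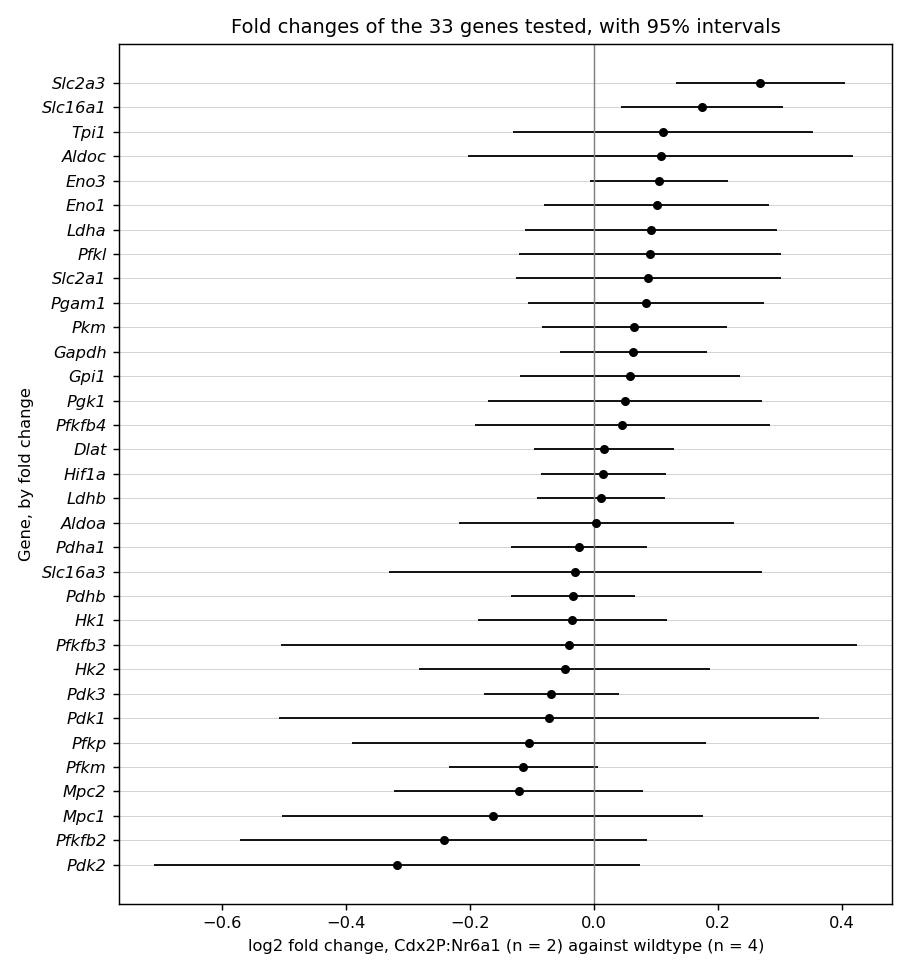
The log2 fold change of Cdx2P:Nr6a1 (n = 2) against wildtype (n = 4) on the x axis for the 33 genes tested, ordered by fold change on the y axis, with bars for the 95% interval of edgeR's fit. The intervals of Slc2a3 (0.13 to 0.40) and Slc16a1 (0.044 to 0.30) lie above 0, and those of the other 31 genes include 0.

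Glucose enters cells through facilitative transporters, of which a pair was abundant in the tailbud. Slc2a3 (chr6:122727809-122801640, minus strand, GRCm38), the high-affinity transporter of neurons and early embryos, was at 1569, 1728, 1683 and 1650 CPM in wildtype replicates 1 to 4 and at 2162 and 1847 CPM in Cdx2P:Nr6a1 replicates 1 and 2. Both Cdx2P:Nr6a1 libraries were above the highest wildtype library, with replicate 1 further above it than replicate 2. The fold change was 1.20 (95% interval 1.10 to 1.32), or 0.27 on the log2 scale (SE 0.060), with an adjusted p of 0.0750 by edgeR, and it is the largest positive change of the list. Over 16 alternative settings the adjusted p ran from 0.00235 to 0.477, and Slc2a3 was called in 2 of them, by DESeq2 and when low counts were not filtered. No near-identical copy of Slc2a3 was found. Without Cdx2P:Nr6a1 replicate 1 the log2 fold change was 0.16, and without replicate 2 it was 0.37. Summed levels of 7 neural genes were 43.4 to 52.0 CPM in wildtype and 63.5 and 76.8 CPM in Cdx2P:Nr6a1, with 5 of the 6 tested at a fold change above 0 and the neural tube gene Pax6 near 0 in each library. Their part in the level of Slc2a3 was not tested. Slc2a1, the widespread basal glucose transporter, was at 278, 345, 342 and 288 CPM in the wildtype libraries and at 355 and 313 CPM in the Cdx2P:Nr6a1 libraries. Its groups overlapped, with a log2 fold change of 0.087 (SE 0.095, adjusted p = 0.878 by edgeR) that ran from 0.0003 to 0.17 when either Cdx2P:Nr6a1 library was left out. The share of Slc2a3 in the sum of both transporters, per kilobase, was 73.2%, 70.8%, 70.4% and 73.5% in the wildtype libraries and 74.6% and 74.0% in the Cdx2P:Nr6a1 libraries. Its mean was thus 2.37 percentage points higher with sustained Nr6a1, where the wildtype SD was 1.59 points.

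The glucose-trapping and committed steps followed. Hk2, the inducible hexokinase that phosphorylates glucose, was at 160, 198, 203 and 157 CPM in the wildtype libraries and at 172 and 177 CPM in the Cdx2P:Nr6a1 libraries, inside the wildtype range. Hk1, the hexokinase of most tissues, lay between 47.0 and 54.7 CPM in all 6 libraries. Hk2 supplied 80.7% to 86.1% of the hexokinase transcripts per kilobase. Gpi1, which isomerises glucose phosphate to fructose phosphate, lay between 239 and 296 CPM in the 6 libraries, with a log2 fold change of 0.058 (SE 0.078). A copy of Gpi1, Gm1840, matches 36.3% of its transcript at 97% identity or more and held 412 counts against 84140 of Gpi1, and 11.5% of its exon bases lie opposite Gm26762, which held 9 to 34 counts per library.

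Phosphofructokinase makes the committed step of glycolysis, and its liver form led. Pfkl was at 434, 513, 468 and 425 CPM in the wildtype libraries and at 543 and 441 CPM in the Cdx2P:Nr6a1 libraries. Cdx2P:Nr6a1 replicate 1 was the highest of the 6 and replicate 2 lay among the wildtype libraries, and the log2 fold change was 0.090 (SE 0.094). Pfkm (chr15:98092589-98132451, plus strand, GRCm38), the muscle form, was at 64.3, 64.3, 61.2 and 59.5 CPM in the wildtype libraries and at 57.7 and 58.0 CPM in the Cdx2P:Nr6a1 libraries. It is the gene of the list whose Cdx2P:Nr6a1 libraries both lay below the wildtype range, by a log2 fold change of -0.11 (SE 0.053, adjusted p = 0.508 by edgeR). Of its exon bases 10.2% also belong to Gm26513, which held 8 to 32 counts per library. Pfkp, the platelet form, lay between 25.7 and 36.0 CPM in all libraries. Its count is uncertain, since 5.58% of its exon bases lie opposite Pitrm1, which held 18946 to 30367 counts per library against 1156 to 2013 of Pfkp. Per kilobase the mean share of Pfkl was 76.6 ± 1.15% in wildtype (SD, n = 4) and 78.9 ± 2.26% in Cdx2P:Nr6a1 (SD, n = 2), and that of Pfkm was 20.8 ± 1.24% and 18.7 ± 2.28%. The shares overlapped between the groups.

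In the aldolase and triose isomerase steps the 2 Cdx2P:Nr6a1 embryos differed from each other. Aldoa, the aldolase that cleaves fructose bisphosphate in most embryonic cells, was at 851, 931, 824 and 733 CPM in the wildtype libraries and at 923 and 757 CPM in the Cdx2P:Nr6a1 libraries. The groups overlapped wholly, and the log2 fold change of 0.0033 (SE 0.098) changed sign under several settings. Aldoc, the brain form, was at 5.69 to 8.10 CPM and supplied under 1% of aldolase transcripts per kilobase. That small share was 0.875% to 0.951% in the wildtype libraries and 0.988% and 0.978% in the Cdx2P:Nr6a1 libraries, which did not overlap. Tpi1, triose phosphate isomerase, was at 669, 783, 760 and 637 CPM in the wildtype libraries and at 870 and 675 CPM in the Cdx2P:Nr6a1 libraries. Its replicate 1 was the highest of the 6 and its replicate 2 was within the wildtype range, with a log2 fold change of 0.11 (SE 0.11, adjusted p = 0.857 by edgeR).

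In the energy-yielding steps Gapdh, which oxidises glyceraldehyde phosphate, was at 854, 880, 870 and 816 CPM in the wildtype libraries and at 941 and 853 CPM in the Cdx2P:Nr6a1 libraries. Gapdh has near-identical copies in 49 other genes that cover 88.0% of its transcript, so its count is uncertain, although those copies together held 3.08% of its own count. Pgk1, the X-linked phosphoglycerate kinase and a maker of ATP, was at 351, 370, 363 and 311 CPM in the wildtype libraries and at 407 and 319 CPM in the Cdx2P:Nr6a1 libraries. Both genes had their highest value in Cdx2P:Nr6a1 replicate 1, while replicate 2 lay in the wildtype range. Pgam1, phosphoglycerate mutase, lay between 126 and 156 CPM, also with its highest value in Cdx2P:Nr6a1 replicate 1. Copies also cover 68.8% of the Pgk1 transcript and 43.1% of that of Pgam1, with under 0.2% of the counts of either gene. The log2 fold changes of these 3 genes lay between 0.049 and 0.083, each with an interval that included 0.

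Eno1, the ubiquitous enolase, was at 1016, 1074, 1012 and 940 CPM in the wildtype libraries and at 1203 and 974 CPM in the Cdx2P:Nr6a1 libraries, with a log2 fold change of 0.10 (SE 0.080, adjusted p = 0.801 by edgeR). Copies in 2 other genes cover 85.6% of its transcript and held 176 counts in all. Eno3, the muscle enolase, was at 49.10, 52.68, 50.95 and 50.48 CPM in the wildtype libraries and at 56.22 and 53.45 CPM in the Cdx2P:Nr6a1 libraries. Eno3 was higher in both Cdx2P:Nr6a1 libraries than in any wildtype library, by a log2 fold change of 0.10 (SE 0.049) and an adjusted p of 0.528 by edgeR. Summed levels of 7 skeletal muscle genes were 10.54 to 12.76 CPM in wildtype and 13.02 and 16.73 CPM in Cdx2P:Nr6a1, with the muscle regulators Myog and Myod1 at or near 0 in each library. The difference between these sums lay in Des, at 3.68 to 4.60 CPM in wildtype and at 6.35 and 9.76 CPM in Cdx2P:Nr6a1. The other muscle genes did not share it, with Tnnt1 at 3.01 to 3.78 CPM in wildtype and at 2.63 and 2.55 CPM in Cdx2P:Nr6a1, and Actc1 overlapping between the groups. The part of muscle cells in the values of Eno3 and Pfkm was not tested.

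Pyruvate and lactate formation held the largest values of the list. Pkm (chr9:59656368-59679375, plus strand, GRCm38) was at 2362, 2510, 2334 and 2222 CPM in the wildtype libraries and at 2683 and 2269 CPM in the Cdx2P:Nr6a1 libraries. The 2 groups overlapped, and the log2 fold change was 0.065 (SE 0.066, adjusted p = 0.868 by edgeR). Its splice forms, which differ in an exon and in how the enzyme is regulated, cannot be told apart in counts per gene. In addition, 15.3% of its exon bases also belong to AC160637.1 on the same strand, which held 1370 to 2383 counts per library, and a copy in Gm6560 covers 65.5% of its transcript with 0.262% of its count. Ldha (chr7:46841475-46855627, plus strand, GRCm38) was at 2426, 2745, 2658 and 2329 CPM in the wildtype libraries and at 3038 and 2398 CPM in the Cdx2P:Nr6a1 libraries. Cdx2P:Nr6a1 replicate 1 was the highest of all and replicate 2 was lower than 3 of the 4 wildtype libraries, so the log2 fold change of 0.092 (SE 0.090) did not exceed the spread. Ldhb, the subunit that favours pyruvate, was steady at 81.6 to 86.3 CPM in the 6 libraries, with a log2 fold change of 0.011 (95% interval -0.093 to 0.11). A copy covers 76.8% of the Ldhb transcript with 24 counts in all, whereas Ldha has none. Ldha made up 93.0% to 93.8% of lactate dehydrogenase transcripts per kilobase in wildtype and 94.4% and 93.2% in Cdx2P:Nr6a1.

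Lactate leaves through proton-linked monocarboxylate transporters. Slc16a1 (chr3:104638668-104658462, plus strand, GRCm38), the widespread transporter that works in either direction, was at 232, 246, 268 and 250 CPM in the wildtype libraries and at 291 and 274 CPM in the Cdx2P:Nr6a1 libraries. Both Cdx2P:Nr6a1 libraries were above the wildtype range, although replicate 2 exceeded wildtype replicate 3 by little. The fold change was 1.13 (95% interval 1.03 to 1.24), or 0.17 on the log2 scale (SE 0.058), and the adjusted p of 0.254 by edgeR did not pass. It ran from 0.107 to 0.839 over the 16 alternatives, with a log2 fold change of 0.14 to 0.21. Slc16a3, the exporter of highly glycolytic cells, was at 211, 299, 280 and 226 CPM in the wildtype libraries and at 271 and 228 CPM in the Cdx2P:Nr6a1 libraries, all inside the wildtype range. Basigin (Bsg), the chaperone that carries both transporters to the membrane, was at 351 to 377 CPM in wildtype and at 359 and 352 CPM in Cdx2P:Nr6a1. Slc16a1 and Slc16a3 were thus near equal in level, the share of Slc16a1 per kilobase being 54.3 ± 3.50% in wildtype (SD, n = 4) and 57.7 ± 1.98% in Cdx2P:Nr6a1 (SD, n = 2), with overlap.

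The entry of pyruvate into the mitochondrion showed the steadiest genes of the list. The pyruvate dehydrogenase subunits Pdha1 (119 to 130 CPM), Pdhb (116 to 123 CPM) and Dlat (104 to 113 CPM) each varied little over the 6 libraries, with log2 fold changes of -0.025, -0.034 and 0.016 and standard errors of at most 0.050. The lowest bound of their 95% intervals was -0.134, for Pdha1, and the highest was 0.129, for Dlat. Of the exon bases of Pdha1 16.1% lie opposite Map3k15, and a copy covers 71.3% of the Pdhb transcript with 99 counts in all. The carrier subunits were lower on average in Cdx2P:Nr6a1, Mpc1 by a log2 fold change of -0.16 (SE 0.15) and Mpc2 by one of -0.12 (SE 0.089), with overlapping groups. The count of Mpc1 is uncertain, because 27.2% of its transcript is shared with the pseudogene Mpc1-ps, whose count was 67.8% of its own, and 23.1% of its exon bases lie opposite 4930506C21Rik.

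The kinases that switch the dehydrogenase off differed from each other. Pdk3, an X-linked gene, was the most abundant per kilobase and stayed between 62.6 and 68.4 CPM. Pdk1, the hypoxia-inducible kinase, was at 79.7, 135, 121 and 98.5 CPM in the wildtype libraries and at 121 and 86.4 CPM in the Cdx2P:Nr6a1 libraries. Its highest wildtype value was thus 1.69 times its lowest, and both Cdx2P:Nr6a1 values fell between them. Pdk2 was at 12.2, 8.74, 7.76 and 10.1 CPM in the wildtype libraries and at 7.31 and 8.26 CPM in the Cdx2P:Nr6a1 libraries. Its log2 fold change of -0.32 (SE 0.17) was the lowest of the list, but the 95% interval ran from -0.71 to 0.073 and the groups overlapped (adjusted p = 0.620 by edgeR). Without wildtype replicate 1 it was -0.19, and there, as without Cdx2P:Nr6a1 replicate 1 (-0.23), other members were lower. The opposing phosphatase Pdp2, which switches the dehydrogenase back on and is outside the list of 34, was at 48.8, 58.5, 53.3 and 52.7 CPM in the wildtype libraries and at 42.1 and 41.6 CPM in the Cdx2P:Nr6a1 libraries. Pdp2 fell by 0.35 on the log2 scale (SE 0.068, adjusted p = 0.0399 by edgeR), and both Cdx2P:Nr6a1 libraries were below the wildtype range. It was called in 9 of the 16 alternatives, with an adjusted p by edgeR of up to 0.234, and the call was lost without wildtype replicate 2, 3 or 4 or either Cdx2P:Nr6a1 library, with scaling by library size only and with Y-linked expression as a covariate. Its companion phosphatase Pdp1 had a log2 fold change of -0.029.

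The bifunctional enzymes that set the activator of phosphofructokinase, and Hif1a itself, were not separated by genotype. Pfkfb3, the form with the strongest kinase activity, was at 47.8, 85.3, 78.7 and 53.3 CPM in the wildtype libraries and at 65.9 and 63.6 CPM in the Cdx2P:Nr6a1 libraries. The wildtype libraries fell into a high and a low pair, and both Cdx2P:Nr6a1 libraries lay between the pairs. Pfkfb4 lay between 11.2 and 13.9 CPM in the 6 libraries and Pfkfb2 between 5.79 and 8.27 CPM, the latter with a log2 fold change of -0.24 (SE 0.15). Of the exon bases of Pfkfb2 17.4% also belong to Gm29427, which was listed at 0 counts in each library, and 2.12% lie opposite Yod1, which held 351 to 528. Hif1a was steady at 225, 227, 241 and 231 CPM in the wildtype libraries and at 239 and 229 CPM in the Cdx2P:Nr6a1 libraries, with a log2 fold change of 0.014 (95% interval -0.087 to 0.12). Of its exon bases 5.60% lie opposite Gm15283, which held 20 to 42 counts per library. Hif1a protein is controlled mostly by its breakdown, which RNA counts do not measure.

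The gene that led its enzyme family was the same in every library for all families but monocarboxylate transport. The leading gene per kilobase was Slc2a3, Hk2, Pfkl, Aldoa, Eno1, Ldha, Pdk3 and Pfkfb3 in every library. In monocarboxylate transport Slc16a1 led in 5 libraries, while in wildtype replicate 2 it had 49.7% and Slc16a3 50.3%. The largest difference between the genotype means was that of Slc16a1, 3.36 percentage points, and the shares of Slc2a3 and of Aldoc were those in which the groups did not overlap. In raw reads, not divided by length, the share of Pfkl did not overlap either, at 82.1% to 83.7% in wildtype and 85.8% and 83.8% in Cdx2P:Nr6a1. The leader also depended on this scale in the kinase and monocarboxylate families. In raw reads Pdk1, not Pdk3, led in every library, at 51.0% to 63.9%. Slc16a3 led there in wildtype replicates 2 (54.8%) and 3 (51.1%), and Slc16a1 in the rest.

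**Figure D3:**
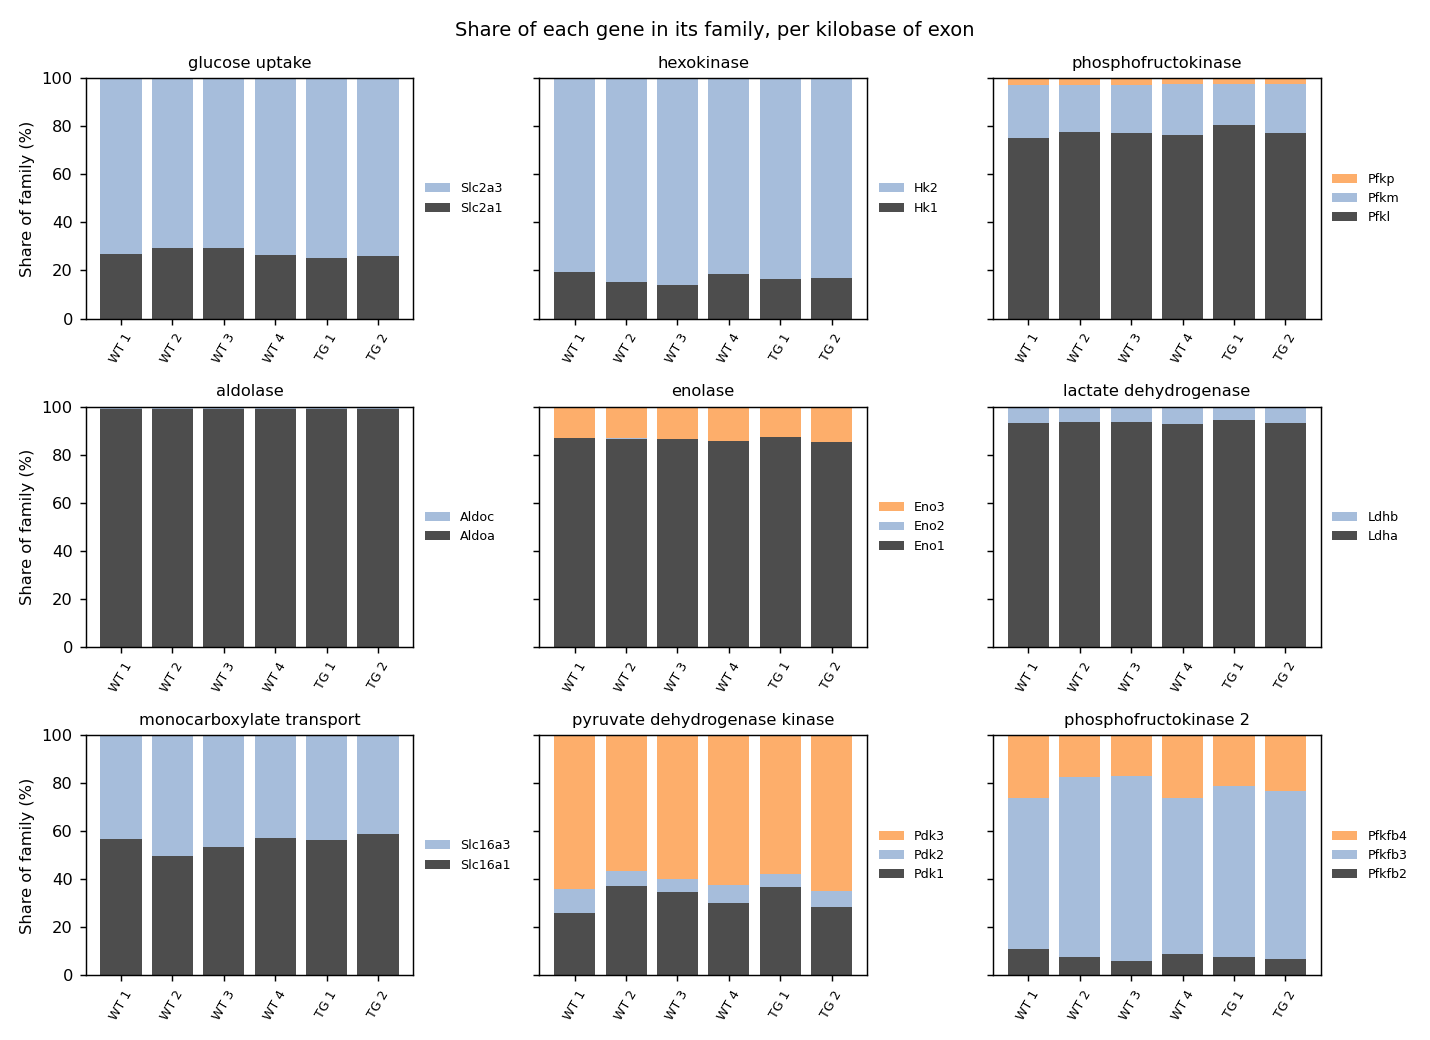
Stacked bars of the share (%, y axis) of each gene in its family, per kilobase of exon, in each library (x axis, WT for wildtype and TG for Cdx2P:Nr6a1), with a panel for each of 9 families. The composition of each bar hardly changes across the 6 libraries except for Pdk1, Pfkfb3 and Slc16a3, which vary among the wildtype libraries.

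Several members varied from embryo to embryo within the wildtype group. The members' median SD of log2 CPM among the 4 wildtype libraries was 0.111, where all genes tested had a median of 0.0824. It was 0.409 for Pfkfb3, 0.332 for Pdk1, 0.266 for Pdk2 and 0.241 for Slc16a3, of which Pfkfb3 exceeded 98.6% and Slc16a3 94.3% of all genes tested. Pdhb (0.0243), Dlat (0.0261) and Ldhb (0.0334) were at the steady end. Of the 33 members, 21 had their highest wildtype value in replicate 2 (63.6%, compared with 21.7% of all genes tested). The lowest was in replicate 4 for 14 members (42.4%, compared with 20.8% of all genes tested). It was in replicate 1 for 12 (36.4%), a share close to that of all genes tested (35.8%). Both Cdx2P:Nr6a1 libraries lay inside the wildtype range for 11 of the 33 (33.3%), a share close to that of all genes tested (36.2%).

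The 2 Cdx2P:Nr6a1 embryos also differed from each other. Replicate 1 exceeded replicate 2 for 27 of the 33 members (81.8%, compared with 54.2% of all genes tested). For 15 members (45.5%, compared with 22.9% of all genes tested) it held the highest value of the 6 libraries. Replicate 2 did so for 0 members, compared with 14.2% of all genes tested. Among the 15 glycolytic enzymes tested, replicate 1 was the highest of the 6 in 10 (66.7%, compared with the same 22.9%). Nr6a1 itself was higher in replicate 2 than in replicate 1. Set against the mean of the wildtype libraries, the members' median log2 CPM stood at 0.112 in replicate 1 and -0.0520 in replicate 2, and at -0.0323, 0.0880, 0.0258 and -0.0662 in wildtype replicates 1 to 4.

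**Figure D4:**
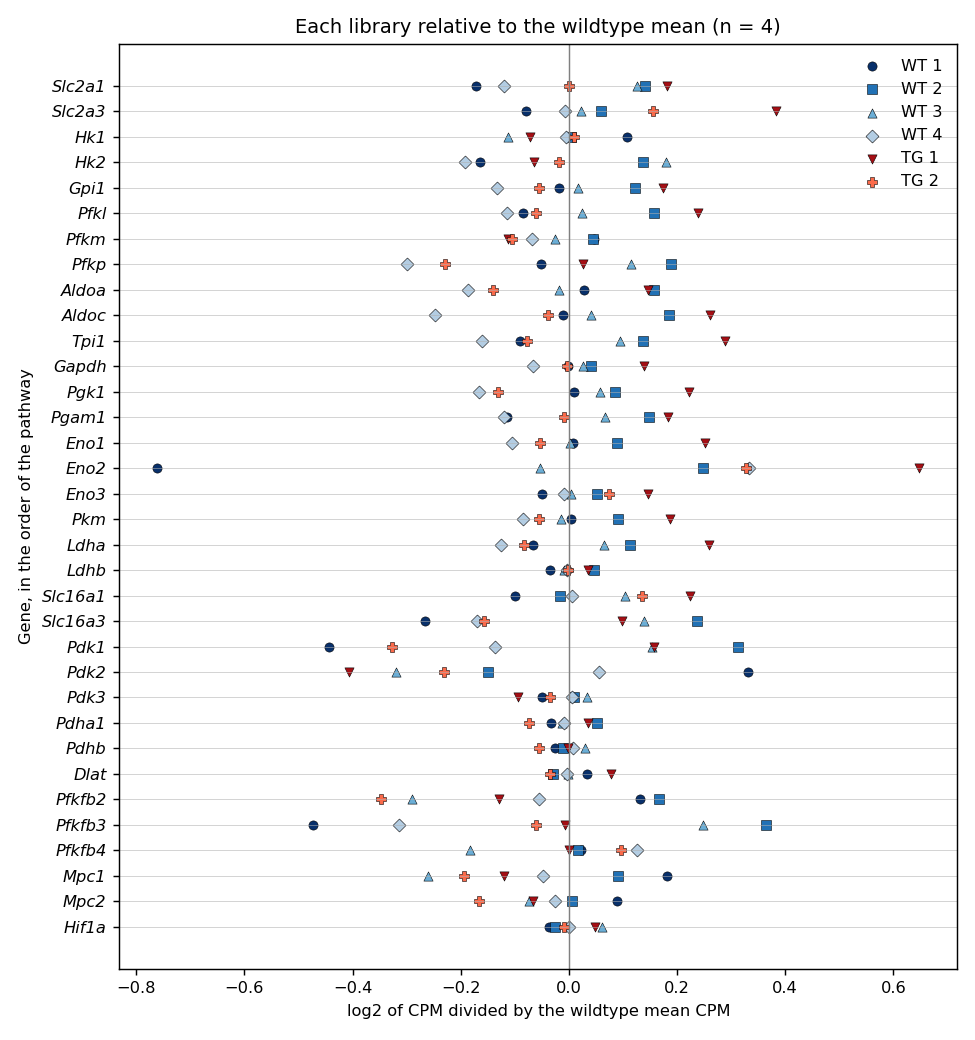
The log2 of CPM divided by the mean of the 4 wildtype libraries (x axis) for the 34 genes in the order of the pathway (y axis), with 1 point per library for wildtype (WT) and Cdx2P:Nr6a1 (TG). For the enzymes from Gpi1 to Ldha the point of Cdx2P:Nr6a1 replicate 1 tends to lie furthest to the right and that of replicate 2 among the wildtype points, and Pdk1, Pdk2 and Pfkfb3 spread widely among the wildtype points.

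Hypoxia-inducible genes outside the pathway differed between embryos as well. A list of 25 such genes, 23 of them tested, had a median SD of 0.224 among wildtype libraries, and its median log2 CPM, set against the same mean, stood at -0.209, 0.188, 0.0969 and -0.0618 in wildtype replicates 1 to 4 and 0.0781 and -0.189 in Cdx2P:Nr6a1 replicates 1 and 2. The sign of this median was the same as that of the 33 members in each of the 6 libraries. For example, Bnip3, a mitophagy gene, was at 24.08, 44.97, 40.81 and 28.44 CPM in the wildtype libraries and at 36.30 and 23.28 CPM in the Cdx2P:Nr6a1 libraries. The TCA cycle list of 17 genes was in contrast steady, with a median SD of 0.0377. The erythroid sum was highest in the libraries in which the hypoxia list was low, at 20022, 10432, 8299 and 15480 CPM in wildtype replicates 1 to 4 and at 10002 and 13801 CPM in Cdx2P:Nr6a1 replicates 1 and 2. All 8 erythroid genes were detected in each library, and the part of these cells in the members' values was not tested beyond a fit with the erythroid sum as a covariate, chosen after seeing the data, in which 0 members were called.

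**Figure D5:**
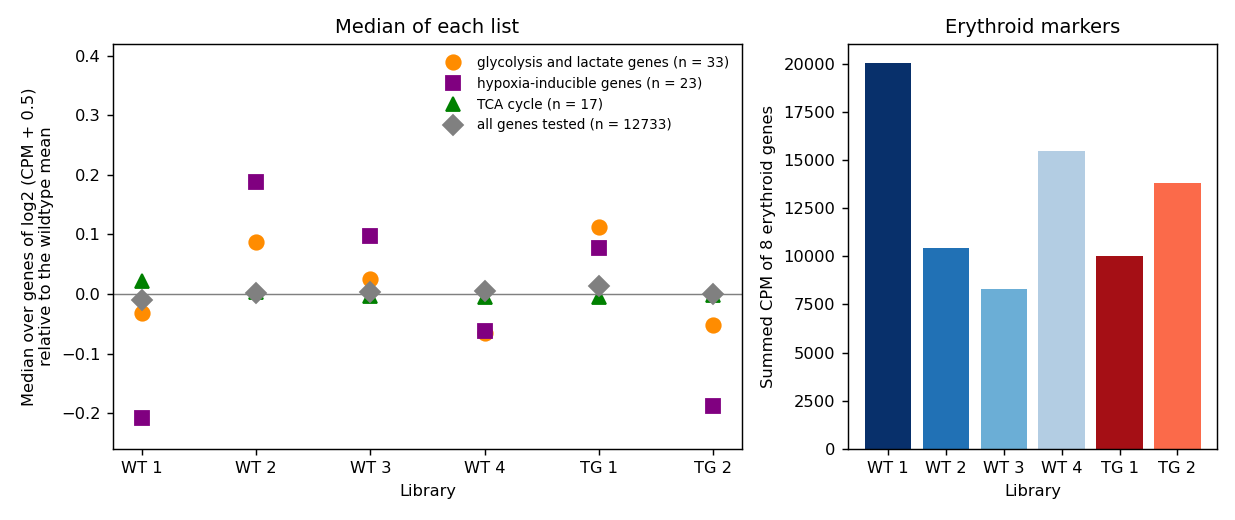
Left, the median over genes of log2 (CPM + 0.5) relative to the mean of the wildtype libraries (y axis) in each library (x axis) for the glycolysis and lactate genes, the hypoxia-inducible genes, the TCA cycle genes and all genes tested. Right, the summed CPM of 8 erythroid genes in the same libraries, which is highest in wildtype replicates 1 and 4 and Cdx2P:Nr6a1 replicate 2, where the medians of the glycolysis and hypoxia genes are below 0.

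Around the list of 34, related metabolic genes gave few calls. Of 39 other isozymes, transporters and bypass genes 23 were tested and 1 was called, Pdp2, and the median log2 fold change was -0.038. The groups did not overlap for 8 of these 23 (34.8%, compared with 18.6% of all genes tested), higher in Cdx2P:Nr6a1 for 3 and lower for 5. The glucose transporter gene Slc2a6 was at 4.60, 5.80, 4.67 and 4.34 CPM in the wildtype libraries and at 7.17 and 7.13 CPM in the Cdx2P:Nr6a1 libraries. Both Cdx2P:Nr6a1 libraries lay above the wildtype range, with a log2 fold change of 0.55 (SE 0.13, adjusted p = 0.0836 by edgeR). Slc2a6 was called in 4 of the 16 alternatives, by the likelihood ratio test, by DESeq2, without a filter on low counts and without wildtype replicate 2. Tissue-specific isozymes such as Hk3, Ldhc and Pdk4 had wildtype means under 1 CPM and were not tested. The 17 TCA cycle genes had 0 called by edgeR's quasi-likelihood test, DESeq2 and limma voom and 0 at an unadjusted p under 0.05, with a median log2 fold change of -0.025. The 17 genes of the pentose phosphate and serine branches gave the same counts, with a median of 0.0070. Of the 23 hypoxia-inducible genes tested 1 was called, Rora, a nuclear receptor gene, which was at 27.48, 39.92, 36.23 and 33.00 CPM in the wildtype libraries and at 20.03 and 19.23 CPM in the Cdx2P:Nr6a1 libraries. Rora fell by 0.81 on the log2 scale (SE 0.13, adjusted p = 0.0182 by edgeR), and it was called in 14 of the 16 alternatives but not without either Cdx2P:Nr6a1 library. The list had a median of -0.13, and 6 of its 23 fold changes were above 0 (26.1%, compared with 49.7% of all genes tested). Vegfa, the angiogenic growth factor, had a log2 fold change of 0.26 (adjusted p = 0.303 by edgeR) and Egln3, an oxygen-sensing hydroxylase, one of -0.29 (adjusted p = 0.146 by edgeR). Each was called in 2 of the 16 alternatives, both of them by edgeR when low counts were not filtered, Egln3 also by DESeq2 and Vegfa also without Cdx2P:Nr6a1 replicate 2. Without the filter 6 of 24 hypoxia-inducible genes were called, where 876 of all 32579 genes were called.

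Of 21 regulators of the pathway 19 were tested and 1 was called. Lin28a, an RNA-binding protein known to promote glycolytic metabolism, was at 162, 191, 182 and 166 CPM in the wildtype libraries and at 323 and 300 CPM in the Cdx2P:Nr6a1 libraries. It rose by a log2 fold change of 0.82 (SE 0.067, adjusted p = 0.00131 by edgeR), with both Cdx2P:Nr6a1 libraries far above the wildtype range, and was called in all 16 alternatives. Lin28b, its paralog, had a log2 fold change of 0.40 (SE 0.093, adjusted p = 0.0836 by edgeR). It was called in 4 of the 16 alternatives, by the likelihood ratio test, by DESeq2, without a filter on low counts and with the erythroid covariate, and also with the replicate number as a block. Myc, a known activator of glycolytic genes, had a log2 fold change of -0.14 (adjusted p = 0.677 by edgeR). The median of the regulators was 0.030.

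The promoters of the list were searched for the core of the hypoxia response element, ACGTG, on either strand. Windows of 250 bases upstream of the start site were taken from RefSeq on GRCm38.p6, for 33 of the 34 genes (not Slc2a3), 32 of them among the genes tested. Of these 32, 13 windows (40.6%) held ACGTG and 8 (25.0%) held at least 2 matches, compared with 22.2% and 9.73% of the 9736 tested genes with a window. Matches were counted on each strand, so a single CACGTG counted as 2, in the members and in all genes alike. AGGTCA, the half-site bound by Nr6a1 and many other nuclear receptors, was in 4 windows (12.5%, compared with 9.78%), and its direct repeat with no spacer, the site Nr6a1 is known for, was in 0 of either set. A match of these letters is a description and not a bound site. The windows below are those of the 4 genes with the largest spread among wildtype embryos and of Ldha, the most abundant gene, whose 5 matches are the most of the list. They are printed 5′ to 3′ along the strand of the gene, with ACGTG or its complement CACGT in capitals, and overlapping matches on the 2 strands form CACGTG. They lie at chr2:11553930-11554179 (Pfkfb3, minus strand), chr2:71872974-71873223 (Pdk1, plus strand), chr11:95041372-95041621 (Pdk2, minus strand), chr11:120948817-120949066 (Slc16a3, plus strand) and chr7:46845554-46845803 (Ldha, plus strand). The RefSeq start of Ldha lies 4329 bases inside the gene as counted. Among windows not printed, those of Hif1a (6492 bases), Aldoa (8661 bases) and Pfkfb2 (13205 bases) start further inside. For 25 of the 33 windows the bases after the start site were found in a transcript of the gene. The shares of windows with a match hold for these start sites only.
Pfkfb3: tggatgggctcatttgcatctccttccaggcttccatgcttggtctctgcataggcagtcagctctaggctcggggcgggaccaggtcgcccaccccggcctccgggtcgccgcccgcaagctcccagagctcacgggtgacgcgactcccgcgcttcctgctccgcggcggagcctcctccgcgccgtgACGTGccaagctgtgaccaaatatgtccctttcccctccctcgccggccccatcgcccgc
Pdk1: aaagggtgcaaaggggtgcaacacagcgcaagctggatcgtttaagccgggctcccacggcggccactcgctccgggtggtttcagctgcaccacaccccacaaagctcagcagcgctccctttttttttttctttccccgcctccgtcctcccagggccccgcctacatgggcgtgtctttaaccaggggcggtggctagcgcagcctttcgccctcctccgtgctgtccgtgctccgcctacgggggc
Pdk2: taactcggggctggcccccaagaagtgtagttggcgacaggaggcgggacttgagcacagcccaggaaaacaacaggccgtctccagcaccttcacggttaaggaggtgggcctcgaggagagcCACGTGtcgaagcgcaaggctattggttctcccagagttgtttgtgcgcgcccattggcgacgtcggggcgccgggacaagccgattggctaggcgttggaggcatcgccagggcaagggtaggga
Slc16a3: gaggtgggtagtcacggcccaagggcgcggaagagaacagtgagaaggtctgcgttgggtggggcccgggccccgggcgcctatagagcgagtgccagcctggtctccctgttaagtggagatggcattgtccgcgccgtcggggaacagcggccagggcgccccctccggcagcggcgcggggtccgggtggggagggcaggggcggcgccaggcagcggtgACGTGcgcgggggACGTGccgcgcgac
Ldha: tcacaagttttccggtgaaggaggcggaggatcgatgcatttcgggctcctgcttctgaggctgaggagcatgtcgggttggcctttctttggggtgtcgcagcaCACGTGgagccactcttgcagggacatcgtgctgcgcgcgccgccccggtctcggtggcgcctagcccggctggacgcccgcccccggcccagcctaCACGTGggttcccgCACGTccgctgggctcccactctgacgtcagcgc

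Of the windows printed, that of Pdk1 holds no match, that of Pfkfb3 holds 1, that of Slc16a3 holds 2 side by side near the start site, and that of Pdk2 holds 2 on opposite strands of a single CACGTG. Of the 4 members whose genotype groups did not overlap, Slc16a1 and Pfkm have 2 matches each, Eno3 has 0 and Slc2a3 has no window. In Slc16a1 and in Pfkm the 2 matches likewise lie on opposite strands of a single CACGTG. Whether a match goes with the spread or the genotype difference of a gene was not tested.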

How the data were processed

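PolyA RNA of 6 tailbuds was sequenced, 1 library per embryo, and each library was placed in the group named by its genotype label. The authors aligned the reads with STAR to mm10 and deposited raw counts per gene, with no normalization or filter. The counting program and its use of strand are not given in the sources used here, so members that share over 5% of their exon bases with another gene are named beside their values. Smaller stretches of Slc2a1, Hk1, Aldoa, Tpi1 and Gapdh lie opposite another gene, between 0.674% and 2.99% of their exon bases, and 0.539% of those of Pfkm lie opposite Senp1. A second deposited table, of the authors' own fold changes and p-values, was not used.

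The members and all lists were chosen with earlier results of these data known, and every member is named. CPM used the column totals, and RPKM the exon lengths of the count table. Where 2 or more libraries exceeded both 10 counts and 2 CPM, a gene was tested in R 4.3.3 with the quasi-likelihood test of edgeR 4.0.16 after TMM normalization, with a Benjamini-Hochberg threshold of 0.05 over all 12733 genes, and the procedure was tested on simulated counts. The standard error is the fold change divided by the root of the F statistic. The biological coefficient of variation was 9.40%. Alternatives used the likelihood ratio test, DESeq2 1.42.0, limma 3.58.1 voom, other normalizations, filters and covariates, and each library left out in turn. The 16 alternatives beside adjusted p-values leave out the replicate block and include the erythroid covariate, chosen after seeing the data. Copies were transcripts of other genes with at least 97% identity over 75 bases. In 4 gene rows the symbol had become a date, and these were kept apart.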

Additional observations from a re-analysis of the deposited data

How the results depend on the processing

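Of 561 refitted fold changes of members, 521 kept their sign and side of the threshold, 38 changed sign and 2 passed it. The count of members called was 0 in all settings but DESeq2 and no filter on low counts, where it was 1, Slc2a3 (log2 fold change 0.27 and 0.26). The count of other pathway genes called was 3, and it was 5 with the likelihood ratio test, 6 with DESeq2 and 10 without a filter. It ran from 1 to 3 with a library left out, and was 1 without Cdx2P:Nr6a1 replicate 1. Leaving out that library left a single Cdx2P:Nr6a1 library, assumed to vary like the others. The log2 ratio of summed glycolytic enzymes then was -0.0621, and it was 0.190 without replicate 2. Aldoa changed sign with filterByExpr (-0.0072), no filter (-0.0005) and the erythroid covariate (-0.0127), a setting chosen after seeing the data. The replicate numbers are not stated to pair embryos, and the correlations of same-numbered deviations were 0.270 and -0.226. With the replicate block 0 members and 442 of all genes were called, and Aldoa (-0.0977), Pgk1 (-0.0097) and Pfkfb3 (0.0042) changed sign. Over the 6 fits with a library left out, the log2 fold changes that changed sign ran as follows. Mostly without Cdx2P:Nr6a1 replicate 1, the low ends were below 0 for Gpi1 (-0.0546 to 0.163), Pfkl (-0.0611 to 0.228), Aldoa (-0.140 to 0.135), Aldoc (-0.0405 to 0.248), Tpi1 (-0.0770 to 0.279), Gapdh (-0.0033 to 0.127), Pgk1 (-0.130 to 0.210), Pgam1 (-0.0084 to 0.172), Eno1 (-0.0527 to 0.240), Pkm (-0.0547 to 0.176), Ldha (-0.0823 to 0.248), Ldhb (-0.0020 to 0.0245), Dlat (-0.0352 to 0.0673), Pfkfb4 (-0.0108 to 0.0979) and Hif1a (-0.0087 to 0.0378). The high ends were above 0 for Hk1 (-0.0824 to 0.0098), Hk2 (-0.113 to 0.0172), Pfkp (-0.230 to 0.0133), Slc16a3 (-0.156 to 0.0865), Pdk1 (-0.327 to 0.146), Pdha1 (-0.0726 to 0.0232) and Pfkfb3 (-0.172 to 0.103). The remaining 11 members did not change sign, but by over 1.5 times moved Slc2a1 (0.0003 to 0.171), Slc2a3 (0.156 to 0.372), Pdk2 (-0.417 to -0.188), Pdk3 (-0.105 to -0.0351), Pdhb (-0.0544 to -0.0131), Pfkfb2 (-0.347 to -0.140), Mpc1 (-0.244 to -0.0994) and Mpc2 (-0.166 to -0.0777). The difference in the share of Pfkp was -0.247 percentage points per kilobase and -0.579 points in raw reads. With 2 Cdx2P:Nr6a1 libraries that differ from each other, changes within these intervals were not detectable.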
